A study of Mus musculus with 78 samples.

Results

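Neurons that fire strongly switch on a set of genes within minutes to hours. Besides transcription factors, the set holds effectors, proteins that act at the synapse, leave the cell as signals or turn signalling off again. 10 such effectors were followed here: Arc, Homer1, Nptx2, Bdnf, Vgf, Dusp1, Dusp6, Sik1, Ptgs2 and Gadd45b. They were chosen as a fixed list of activity-induced genes that do not encode transcription factors and that are present in both deposited count tables, 10 of the 55367 gene symbols listed there. All 10 were found. In the GENCODE M21 annotation of GRCm38, all are protein-coding genes. The genes of synaptic and secreted proteins are Arc (chr15:74669083-74672570, minus strand), Homer1 (chr13:93299635-93405129, plus strand), Nptx2 (chr5:144545902-144557478, plus strand), Bdnf (chr2:109674700-109727007, plus strand) and Vgf (chr5:137026392-137033351, plus strand). Those of the regulators of signalling and of the remaining enzymes and factors are Dusp1 (chr17:26505590-26562128, minus strand), Dusp6 (chr10:99263231-99267489, plus strand), Sik1 (chr17:31844250-31855804, minus strand), Ptgs2 (chr1:150100031-150108227, plus strand) and Gadd45b (chr10:80930073-80932204, plus strand).

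The study sequenced poly(A) RNA from 7 brain regions of 12 mice. Acss2 encodes a nuclear and cytoplasmic enzyme that makes acetyl-CoA from acetate, which ethanol breakdown releases. The KO mice carried a constitutive Acss2 deletion on the C57BL6/J background, made by CRISPR cuts in introns on both sides of exons 3 to 7 and backcrossed for 3 generations, and the WT mice carried no deletion. Each of the 4 combinations of sex and genotype had 3 mice: males 1, 2 and 10 (KO) and 3, 12 and 13 (WT), and females 4, 5 and 6 (KO) and 11, 23 and 24 (WT). All mice were adult, housed singly and drank ethanol in a drinking in the dark protocol, a model of binge-like intake in the dark phase. After 1 week of habituation they were offered ethanol at 15% by volume for 2 h on days 1 to 3 and for 4 h on day 4, and in a second week ethanol with no water during the sessions. Every group therefore shares ethanol exposure and handling, and the levels below are those of drinking mice. The labels give neither the time from the last session to dissection nor the time of day of dissection, both of which matter for genes that rise and fall within hours. They do not say how many founders the KO mice trace to, or give litters.

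Of the 78 libraries, ventral and dorsal striatum and dorsal and ventral hippocampus had 12 each, amygdala and cortex 11 and prefrontal cortex 8, of which 1 was male KO. The 47 libraries of both striatal regions, amygdala and dorsal hippocampus held 4454420 to 14487778 counts, and the 31 of cortex, prefrontal cortex and ventral hippocampus held 629635 to 1228828. A floor of 3 counts, which covers counting error only, corresponds to 0.207 to 0.673 CPM (read counts scaled to a common library total) in the first set and to 2.44 to 4.76 CPM in the second. Depth and region cannot be told apart. The deletion was visible in every library: Acss2 was at 0.971 to 14.02 CPM in KO and at 35.9 to 73.8 CPM in WT libraries. The library labelled female WT prefrontal cortex of mouse 23 held no Xist count and 60 counts (73.4 CPM) of the Y-linked gene Ddx3y, so its label does not match its sex, and the calls that changed without it are given.

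Region labels were checked with marker genes of projection neurons of the striatum, excitatory neurons and dentate granule cells, and 9 libraries stood apart by striatal markers, or by low dentate markers in hippocampus. In dorsal striatum, mouse 10 (male KO) and mouse 23 (female WT) held 608 and 438 CPM of summed striatal markers against a median of 7022 over that region, and 3572 and 3533 CPM of excitatory markers against a median of 1102. In ventral striatum, mouse 10 (male KO) and mouse 13 (male WT) held 1389 and 759 CPM of striatal markers against a median of 5823. Striatal markers were high in the libraries of mouse 6 (female KO) from amygdala (2783 against a median of 714 CPM) and ventral hippocampus (4930.5 against 361), and of mouse 5 (female KO) from prefrontal cortex (2655 against 782). Dentate markers were low in ventral hippocampus of mice 6 and 10 (49.8 and 60.02 against a median of 182 CPM) and in dorsal hippocampus of mouse 23 (148 against 529). By excitatory markers, 6 libraries departed over 3-fold from the median of their region, 3 of them not among the 9. Beside the 2 of dorsal striatum, these were mice 2 and 10 (male KO) and 24 (female WT) in ventral striatum, with 1715, 1943 and 1958 CPM against a median of 483, and mouse 12 (male WT) in amygdala, with 698 against 2418. The reason was not tested, and results are given without the 9 or the 6 libraries where that changed a call or a value that a statement rests on. Markers of choroid plexus and oligodendrocytes also varied and were not used to set libraries apart. Choroid plexus sums ran from 16.2 to 9101 CPM in amygdala and from 2.23 to 6598 CPM in dorsal striatum. Oligodendrocyte sums ran from 2034 to 16030.5 CPM in dorsal hippocampus, highest in mouse 23. In prefrontal cortex the oligodendrocyte medians were 7507 CPM in KO and 2290 CPM in WT. In bulk tissue, fewer cells of a type and less RNA per cell cannot be told apart.

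Many activity-induced genes carry binding sites for CREB, a factor phosphorylated after calcium or cAMP signals, in their promoters. The core of such a site is TGACG, read on either strand (CGTCA), and the full palindrome is TGACGTCA, which holds both cores overlapping. RefSeq promoters (GRCm38.p6, 250 bases before to 50 after an annotated start) were at hand for 6 of the 10 genes: Homer1, Dusp1, Dusp6, Bdnf, Ptgs2 and Gadd45b. 4 of these 6 genes had a core in at least 1 promoter, against 23.05% of the 27025 genes in the table. Over all 32851 promoters, 20.8% held a core, 1.79% the full palindrome and 1.03% at least 3 cores. The promoters with a core are shown 5′ to 3′ on the gene's strand because they are the sequence feature that several of the genes share, with the cores in capitals.
Dusp1 (chr17:26508423-26508722, minus strand): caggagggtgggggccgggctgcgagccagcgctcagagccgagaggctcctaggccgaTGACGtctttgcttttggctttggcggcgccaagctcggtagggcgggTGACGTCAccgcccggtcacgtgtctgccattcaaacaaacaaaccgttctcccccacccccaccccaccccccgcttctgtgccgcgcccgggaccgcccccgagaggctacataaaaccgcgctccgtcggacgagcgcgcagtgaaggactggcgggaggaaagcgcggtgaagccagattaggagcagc
Homer1 (chr13:93303507-93303806, plus strand): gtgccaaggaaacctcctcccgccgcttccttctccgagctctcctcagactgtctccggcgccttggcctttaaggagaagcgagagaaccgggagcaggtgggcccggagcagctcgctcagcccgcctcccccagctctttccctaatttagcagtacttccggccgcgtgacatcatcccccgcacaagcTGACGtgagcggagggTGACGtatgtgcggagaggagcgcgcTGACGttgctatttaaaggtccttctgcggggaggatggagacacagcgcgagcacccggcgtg
Bdnf (chr2:109692186-109692485, plus strand): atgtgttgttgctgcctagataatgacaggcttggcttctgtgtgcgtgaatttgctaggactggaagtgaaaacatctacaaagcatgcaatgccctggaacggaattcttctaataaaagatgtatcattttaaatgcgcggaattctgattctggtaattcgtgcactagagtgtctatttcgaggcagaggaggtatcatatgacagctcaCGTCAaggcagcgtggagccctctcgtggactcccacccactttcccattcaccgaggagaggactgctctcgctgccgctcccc
Ptgs2 (chr1:150099781-150100080, plus strand): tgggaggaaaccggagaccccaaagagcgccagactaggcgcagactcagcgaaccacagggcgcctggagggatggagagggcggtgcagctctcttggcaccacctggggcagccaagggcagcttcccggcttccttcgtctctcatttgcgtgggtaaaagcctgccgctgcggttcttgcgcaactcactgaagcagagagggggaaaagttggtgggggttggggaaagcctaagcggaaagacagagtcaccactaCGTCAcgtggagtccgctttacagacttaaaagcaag
Dusp1 held 3 cores, 2 of them in a full palindrome, whose centres lay 189, 141 and 138 bases before the start. The Homer1 promoter held 3 cores, centred 54, 38 and 12 bases before the start, and a second Homer1 promoter held none. In Bdnf, 1 of 7 annotated promoters held a core, centred 33 bases before its start, and in Ptgs2 the core lay 15 bases after the start. Neither the Dusp6 nor the Gadd45b promoter held these letters. A match describes the letters only and was not compared with any measurement of binding.

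The 10 genes differed widely between regions. Each region was compared with the mean of the other 6 in a single fit of all 78 libraries with edgeR's quasi-likelihood test, with Benjamini-Hochberg adjustment over the 15663 genes tested and a threshold of 0.05. All 10 genes passed the filter on low counts in that fit. Of the 70 tests, 33 passed, 15 with a higher and 18 with a lower level in the region named. The shares of all genes that passed were 51.1% for ventral striatum, 53.7% for dorsal striatum, 34.3% for amygdala, 44.1% for cortex, 26.7% for prefrontal cortex, 40.6% for dorsal hippocampus and 25.1% for ventral hippocampus. Among the 10 effectors, 6 passed in each striatal region, 3 in amygdala, 5 in cortex, 1 in prefrontal cortex and 6 in each hippocampal region. A share of called genes of this size is thus common in these tissues, except that in ventral hippocampus 6 of 10 stand beside 25.1% of all genes. Between pairs of regions 100 of 210 tests passed, against 37% over all genes. The plot of levels by region shows every library.

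**Figure D1:**
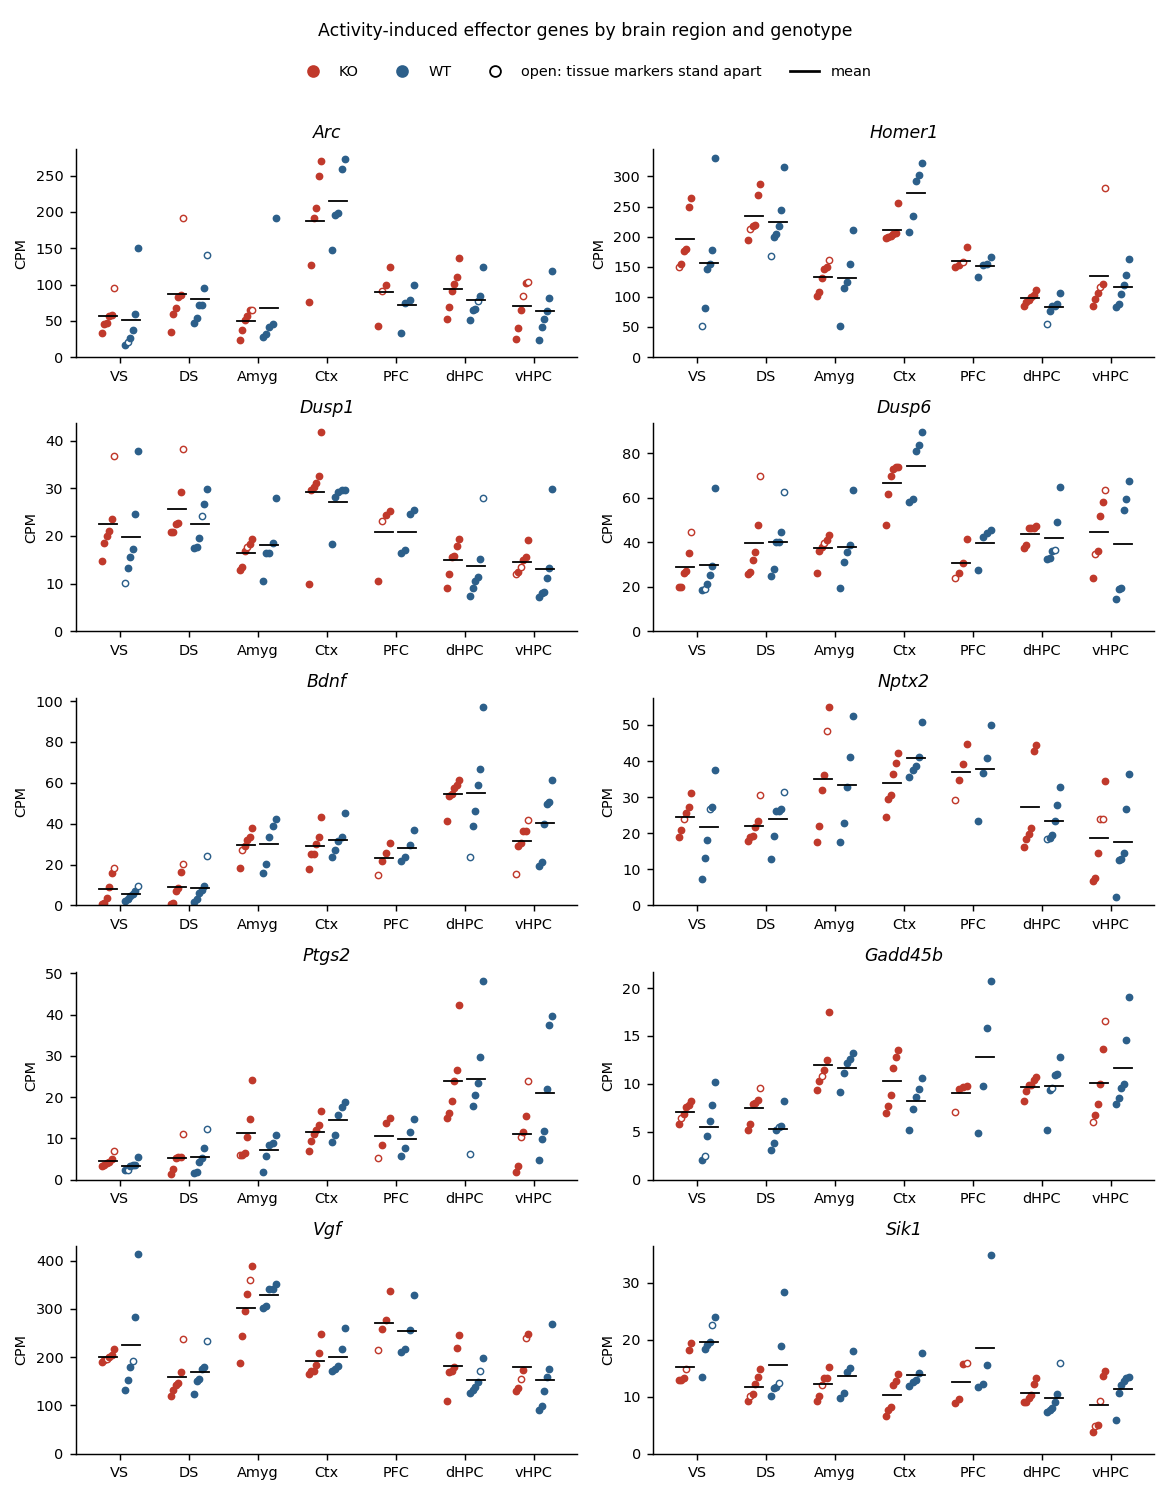
CPM of the 10 genes in each library (VS ventral striatum, DS dorsal striatum, Amyg amygdala, Ctx cortex, PFC prefrontal cortex, dHPC and vHPC dorsal and ventral hippocampus), KO in red and WT in blue, with open points for the 9 libraries whose tissue markers stood apart and a line at each mean. Arc and Dusp6 were highest in cortex, Bdnf and Ptgs2 in dorsal hippocampus and lowest in striatum, and the KO and WT points of a region largely overlap.

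Among the synaptic proteins, Arc, a cytoskeletal protein that takes part in the removal of AMPA-type glutamate receptors from synapses, was highest in cortex. Its lowest, median and highest values were 76.6, 199 and 274 CPM in cortex (n = 11), 51.1, 80.8 and 136 CPM in dorsal hippocampus and 35, 71.9 and 192 CPM in dorsal striatum (n = 12 each). They were 33.9, 84.9 and 124 CPM in prefrontal cortex (n = 8), 23.8, 64.5 and 119 CPM in ventral hippocampus, 22.9, 45.6 and 191 CPM in amygdala (n = 11) and 16.3, 46.3 and 151 CPM in ventral striatum. The cortical median lay above the highest library of every other region. Cortex stood 1.59 ± 0.21 above the mean of the other regions on the log2 scale (edgeR, adjusted p = 1.61e-09). It also stood above the next region, dorsal hippocampus, by 1.23 ± 0.28 (adjusted p = 0.000205). Below cortex, no neighbours in the order of levels differed beyond their spread. Arc was lower in ventral striatum at -0.75 ± 0.22 (adjusted p = 0.00288), and in amygdala at -0.64 ± 0.22 (adjusted p = 0.0189). The amygdala call was lost without mouse 24, at an adjusted p of 0.0643 and a log2 difference of -0.53, and without the 6 libraries that departed by excitatory markers (-0.42, adjusted p = 0.0873). Without those 6, ventral striatum also passed below the next region up, amygdala, at -0.68 (adjusted p = 0.0292).

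Homer1, a scaffold that ties metabotropic glutamate receptors to the postsynaptic density, followed another order. The counts are per gene, so the short form induced by activity cannot be separated from the long constitutive forms. Lowest, median and highest values were 197, 208 and 322 CPM in cortex, 168, 218 and 316 CPM in dorsal striatum, 51.7, 166 and 331 CPM in ventral striatum and 133, 154 and 182 CPM in prefrontal cortex. They were 52.3, 132 and 211 CPM in amygdala, 82.8, 112 and 281 CPM in ventral hippocampus and 54.9, 89.2 and 111 CPM in dorsal hippocampus. Every library of cortex and of dorsal striatum lay above every library of dorsal hippocampus. Against the other regions, Homer1 was higher in cortex by 0.75 ± 0.14 (edgeR, adjusted p = 1.04e-05) and in dorsal striatum by 0.69 ± 0.13 (adjusted p = 5.17e-06). It was lower in dorsal hippocampus at -0.88 ± 0.15 (adjusted p = 6.61e-07). No neighbours in the order passed. Without the 9 libraries that stood apart, 3 further regions passed: ventral striatum at 0.34 (adjusted p = 0.0122), amygdala at -0.35 (0.0231) and ventral hippocampus at -0.63 (0.000402). The ventral hippocampus of mouse 6, with the high striatal markers, held the region's highest Homer1 value. With the mouse as a replicate block, ventral hippocampus passed as well, at -0.42 (adjusted p = 0.0253).

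Nptx2, a secreted pentraxin that gathers AMPA-type receptors at synapses, varied less by region. Means were 37.4 ± 8.45 CPM in prefrontal cortex (SD, n = 8), 36.97 ± 7.09 in cortex and 34.3 ± 13.6 in amygdala (n = 11 each), and 25.3 ± 9.72, 23.1 ± 8.12, 22.9 ± 5.56 and 18.1 ± 10.96 in dorsal hippocampus, ventral striatum, dorsal striatum and ventral hippocampus (n = 12 each). The values in ventral hippocampus reached from 2.21 to 36.4 CPM, the lowest of them a single library with 2 counts, and the ranges of all regions overlap. Nptx2 was higher in cortex, by 0.53 ± 0.20 (edgeR, adjusted p = 0.0215), and lower in ventral hippocampus at -0.72 ± 0.22 (adjusted p = 0.00876). No neighbours differed beyond their spread. The cortex call was lost without mouse 12 (0.44, adjusted p = 0.075), and the replicate block added prefrontal cortex at 0.56 (adjusted p = 0.0404). Without the 6 libraries that departed by excitatory markers, amygdala (0.47, adjusted p = 0.0137) and ventral striatum (-0.45, adjusted p = 0.0322) passed as well.

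The secreted signals Bdnf and Vgf had different maps. Bdnf encodes the neurotrophin that binds the TrkB receptor, and striatal neurons are known to receive much of it from cortical axons rather than make it. Its lowest, median and highest values were 23.7, 56.05 and 96.9 CPM in dorsal hippocampus, 15.6, 36.5 and 61.4 CPM in ventral hippocampus, 17.8, 30.2 and 45.2 CPM in cortex, 15.8, 31.98 and 42.2 CPM in amygdala and 15.1, 24.6 and 36.7 CPM in prefrontal cortex. In striatum they were 0.728, 7.07 and 24.1 CPM (dorsal) and 0.885, 5.10 and 18.5 CPM (ventral). The highest dorsal striatal values, 24.1 and 20.5 CPM, were those of mice 23 and 10, whose dorsal striatum libraries held few striatal and many excitatory markers, and the remaining 10 lay at or below 16.2 CPM. The part of that difference in tissue in these values was not tested, and the regional contrast was larger without those libraries. Bdnf was higher in dorsal hippocampus by 1.57 ± 0.20 (edgeR, adjusted p = 5.04e-10) and in ventral hippocampus by 0.78 ± 0.26 (adjusted p = 0.0189). It was lower in dorsal striatum at -1.55 ± 0.26 (adjusted p = 4.11e-07; -2.02 without the 9 libraries) and in ventral striatum at -2.05 ± 0.27 (adjusted p = 1.65e-09; -2.30 without them).

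In the order of Bdnf levels the step from prefrontal cortex down to dorsal striatum, 1.52 ± 0.39 on the log2 scale, was the only one between neighbours that passed (edgeR, adjusted p = 0.000970). Without the 9 libraries amygdala (0.59, adjusted p = 0.0149) and cortex (0.65, adjusted p = 0.0331) also stood above the mean of the others. The ventral hippocampus call was lost when mouse 12, 13 or 24 was left out, with adjusted p-values of 0.0576, 0.0504 and 0.0645. An antisense gene, Gm45346, overlaps Bdnf on the other strand, and the strand setting of the counting is not given in the sources used here, so reads of the pair cannot be told apart.

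Vgf, the precursor of several secreted neuropeptides, was highest in amygdala. Lowest, median and highest values were 189, 331 and 388 CPM in amygdala, 212, 257 and 337 CPM in prefrontal cortex, 133, 196 and 414 CPM in ventral striatum and 165, 181 and 259.6 CPM in cortex. They were 109, 170.5 and 247 CPM in dorsal hippocampus, 91.1, 157 and 268 CPM in ventral hippocampus and 121, 153 and 238 CPM in dorsal striatum. The amygdala median exceeded all libraries of cortex, hippocampus and dorsal striatum. Amygdala stood 0.71 ± 0.10 above the others (edgeR, adjusted p = 9.23e-08) and prefrontal cortex 0.36 ± 0.13 above (adjusted p = 0.0269). Vgf was lower in dorsal hippocampus (-0.30 ± 0.11, adjusted p = 0.0205), dorsal striatum (-0.36 ± 0.11, adjusted p = 0.00444) and ventral hippocampus (-0.39 ± 0.12, adjusted p = 0.00808). No neighbouring regions differed beyond their spread. The prefrontal call was lost without the library of mouse 23 whose sex label did not match (0.33, adjusted p = 0.0668) and without mouse 1 or 6 (adjusted p = 0.112 and 0.0856). The dorsal hippocampal call was lost without mouse 2 or 3 (0.0875 and 0.0519) and without the 9 libraries (0.0536).

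Dusp1 and Dusp6 encode phosphatases that switch off MAP kinases after a stimulus, Dusp1 in the nucleus and Dusp6 in the cytoplasm with a preference for ERK. Dusp1 had lowest, median and highest values of 9.90, 29.7 and 41.9 CPM in cortex, 17.4, 22.6 and 38.2 CPM in dorsal striatum, 10.2, 19.3 and 37.8 CPM in ventral striatum and 10.54, 23.7 and 25.4 CPM in prefrontal cortex. The values were 10.6, 16.9 and 28 CPM in amygdala, 7.44, 13.7 and 27.9 CPM in dorsal hippocampus and 7.29, 12.9 and 29.9 CPM in ventral hippocampus. All regions overlapped in range. Dusp1 was higher in cortex by 0.66 ± 0.17 (edgeR, adjusted p = 0.000842) and in dorsal striatum by 0.41 ± 0.13 (adjusted p = 0.00541). It was lower in dorsal hippocampus at -0.49 ± 0.14 (adjusted p = 0.00302) and in ventral hippocampus at -0.59 ± 0.18 (adjusted p = 0.0126), and no neighbours passed. Ergic1 lies on the opposite strand within the annotated span of Dusp1, with the same limit on strand as for Bdnf.

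Dusp6 followed Arc rather than Dusp1 in its order of regions. Its lowest, median and highest values were 47.7, 72.8 and 89.6 CPM in cortex, 32.4, 42.6 and 64.9 CPM in dorsal hippocampus, 14.3, 43.9 and 67.6 CPM in ventral hippocampus and 24.97, 37.9 and 69.9 CPM in dorsal striatum. They were 19.4, 37.95 and 63.6 CPM in amygdala, 23.97, 36.1 and 45.3 CPM in prefrontal cortex and 18.4, 25.7 and 64.5 CPM in ventral striatum. The cortical median lay above the highest library of every other region. Dusp6 was higher in cortex by 0.94 ± 0.16 (edgeR, adjusted p = 2.07e-06), and cortex also passed against the next region, dorsal hippocampus, by 0.70 ± 0.20 (adjusted p = 0.00341). It was lower in ventral striatum at -0.60 ± 0.15 (adjusted p = 0.000581). No other neighbours differed beyond their spread. Without the 6 libraries that departed by excitatory markers, ventral striatum passed below the next region up, prefrontal cortex, at -0.60 (adjusted p = 0.0161).

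Sik1, a kinase that keeps the CREB coactivators of the CRTC family out of the nucleus, was the member whose highest level lay in ventral striatum. Its lowest, median and highest values were 12.9, 18.3 and 23.96 CPM there, 8.95, 13.9 and 34.9 CPM in prefrontal cortex, 9.34, 12.03 and 28.4 CPM in dorsal striatum and 9.31, 13.2 and 17.98 CPM in amygdala. They were 6.60, 12.6 and 17.6 CPM in cortex, 7.32, 9.42 and 15.97 CPM in dorsal hippocampus and 3.84, 11.4 and 14.6 CPM in ventral hippocampus. All regions overlapped. Sik1 was higher in ventral striatum by 0.50 ± 0.11 (edgeR, adjusted p = 7.37e-05) and lower in dorsal hippocampus at -0.33 ± 0.11 (adjusted p = 0.0169) and ventral hippocampus at -0.46 ± 0.16 (adjusted p = 0.0241). The ventral hippocampal call was lost without the 9 libraries (adjusted p = 0.0824) and without mouse 1, 2, 10 or 13 (adjusted p between 0.0505 and 0.093). The dorsal hippocampal call was lost without mouse 3 or 12 (0.0867 and 0.0514).

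Ptgs2, the inducible cyclooxygenase that makes the precursor of prostaglandins, had a map close to that of Bdnf. Lowest, median and highest values were 6.20, 22 and 48.1 CPM in dorsal hippocampus, 1.94, 11.7 and 39.7 CPM in ventral hippocampus, 6.90, 12.1 and 18.9 CPM in cortex and 5.33, 10.1 and 14.9 CPM in prefrontal cortex. They were 1.91, 8.50 and 24.1 CPM in amygdala, 1.42, 5.23 and 12.3 CPM in dorsal striatum and 2.23, 3.59 and 6.92 CPM in ventral striatum. The lowest values in ventral hippocampus rest on 2 or 3 counts. Ptgs2 was higher in dorsal hippocampus by 1.51 ± 0.20 (edgeR, adjusted p = 3.85e-09) and in ventral hippocampus by 0.78 ± 0.29 (adjusted p = 0.0356). It was lower in dorsal striatum at -1.05 ± 0.25 (adjusted p = 0.000306) and in ventral striatum at -1.59 ± 0.27 (adjusted p = 9.00e-07). Between neighbours the step from amygdala to dorsal striatum passed (0.82 ± 0.30, adjusted p = 0.0188), but not without mouse 4, 5 or 13 (adjusted p = 0.0523, 0.115 and 0.0522). The ventral hippocampal call rested on single mice: without mouse 13 it fell to 0.50 (adjusted p = 0.248), without mouse 24 to 0.63 (0.127), and it was also lost without mouse 10, 11 or 12 (0.0526, 0.0502 and 0.0743).

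Gadd45b, a stress and activity-induced protein linked to DNA demethylation at neuronal genes, was highest in amygdala and lowest in striatum. Means were 11.8 ± 2.29 CPM in amygdala (SD, n = 11), 10.9 ± 5.05 in prefrontal cortex (n = 8) and 10.9 ± 4.13 in ventral hippocampus (n = 12). They were 9.77 ± 1.83 in dorsal hippocampus (n = 12), 9.33 ± 2.58 in cortex (n = 11), 6.35 ± 1.99 in dorsal striatum and 6.32 ± 2.37 in ventral striatum (n = 12 each). No amygdala library fell below 9.17 CPM, and the highest ventral striatal library reached 10.2. Gadd45b was higher in amygdala by 0.43 ± 0.13 (edgeR, adjusted p = 0.00728), and lower in dorsal striatum at -0.57 ± 0.14 (adjusted p = 0.000361) and ventral striatum at -0.62 ± 0.14 (adjusted p = 0.000185). The step from cortex to dorsal striatum was the one between neighbours that passed (0.54 ± 0.22, adjusted p = 0.0360), and it was lost without mouse 3, 4, 5, 13 or 24 (adjusted p between 0.0552 and 0.107) and without the filter on low counts (0.0903).

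Levels of different genes were compared per kilobase of exonic length (GENCODE M21, GRCm38). On that scale Vgf had the highest mean of the 10 in every region, from 55.2 CPM per kb in dorsal striatum to 106 in amygdala. Arc came next in every region, at 17.6 in ventral striatum to 65.3 in cortex, where Vgf was at 65.8. Ptgs2 had the lowest mean in both striatal regions, amygdala and prefrontal cortex, at 0.863 in ventral striatum, where Bdnf was at 1.09. Sik1 had the lowest mean in cortex and dorsal and ventral hippocampus, at 2.31, 1.99 and 1.94.

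Other lists of genes were counted in the same regional comparisons, in which 44.1% of all genes passed in cortex and 51.1% in ventral striatum. Of 19 rapid activity-induced transcription factors, all tested, 9 passed with a higher and 1 with a lower level in cortex, with a median log2 difference of 0.38 against -0.051 over all genes. In ventral striatum 1 passed higher and 6 lower, with a median of -0.24 against 0.014. Among all regions, the highest median of these factors was 0.393 in prefrontal cortex and the lowest -0.372 in ventral hippocampus. For the 10 effectors the median was 0.54 in cortex and -0.46 in ventral striatum. Of 23 further effectors that were tested, 5 passed higher and 2 lower in cortex, and 6 passed in each direction in ventral striatum, with medians of 0.064 and 0.010. Of 27 tested partners and relatives of the 10 genes (receptors, scaffolds, kinases and prostaglandin genes), 5 passed higher and 9 lower in cortex, and 9 higher and 11 lower in ventral striatum, with medians of 0.0047 and -0.050.

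No difference between KO and WT passed for any of the 10 genes. KO and WT libraries of a region were compared with both sexes in a fit and sex as a term. 68 of 70 tests were possible, since Gadd45b did not pass the filter on low counts in cortex and ventral hippocampus. None of the 68 passed with edgeR's quasi-likelihood test or with DESeq2, and the smallest adjusted p was 0.646. At an unadjusted p under 0.05 there were 4, which is 5.88% of the tests, against 4.73% of the tests of all genes. The shares of all genes that passed were 0.00739% in ventral striatum, 0.00723% in dorsal striatum, 0.00699% in amygdala, 0.0103% in cortex, 0.0949% in prefrontal cortex, 0.00722% in dorsal hippocampus and 0.00996% in ventral hippocampus. In each region but prefrontal cortex the single gene called was Acss2, with log2 differences from -3.27 to -2.82. The log2 differences of the 10 genes lay between -1.06 and 0.53, with median standard errors per region of 0.201 to 0.336, so that differences near these errors were not detectable at this number of mice. In simulated ventral striatum counts, 200 genes drawn at random were changed together by 1 on the log2 scale, and 141 were called. With so many changed genes the adjustment is milder than in the real fit, where 1 gene passed. The simulated share therefore does not carry over to the 10 genes.

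**Figure D2:**
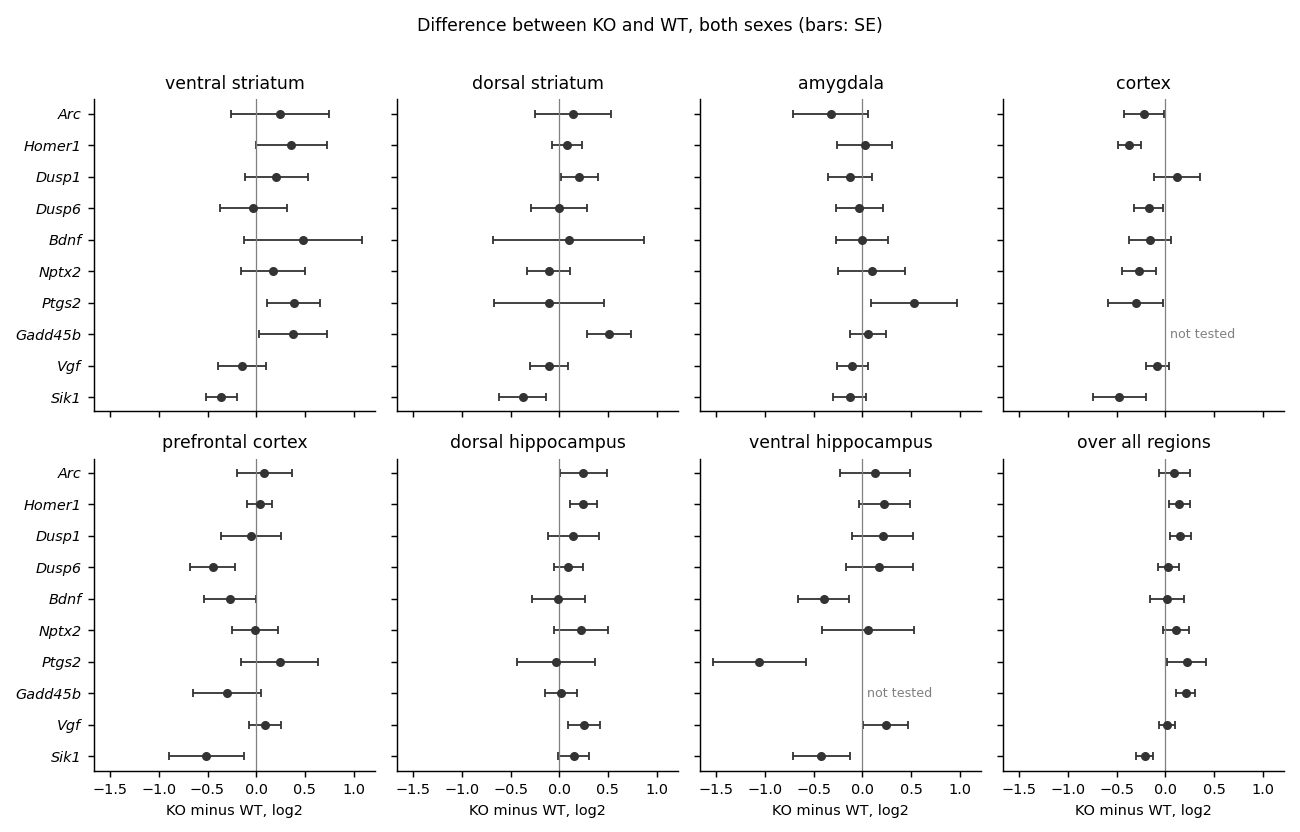
Log2 difference between KO and WT for each gene and region (both sexes, edgeR) and over all regions (limma), with bars of 1 standard error. None passed after adjustment over all genes, and the points lie on both sides of 0.

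Among the synaptic genes, the smallest p was that of Homer1 in cortex. Lowest, median and highest values were 197, 203 and 256 CPM in the 6 KO libraries, and the 5 WT libraries held 208, 234 and 322 (male) and 292 and 302 CPM (female). 5 of 6 KO libraries lay below all 5 WT libraries, and KO mouse 2 lay among them. The log2 difference was -0.37 ± 0.11 (edgeR, adjusted p = 0.728). Within females it was -0.56 ± 0.14 (adjusted p = 0.184), where the 3 KO values of 197, 201 and 205 CPM lay below the 2 WT values. In dorsal hippocampus the difference had the opposite sign (0.24 ± 0.14, adjusted p = 1). Arc ranged from -0.33 ± 0.39 in amygdala to 0.25 ± 0.24 in dorsal hippocampus. Nptx2 ranged from -0.27 ± 0.18 in cortex to 0.22 ± 0.28 in dorsal hippocampus.

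Sik1 pointed the same way in most regions. In ventral striatum the lowest, median and highest values were 12.9, 14.1 and 19.4 CPM in KO and 13.4, 19.4 and 23.96 CPM in WT (n = 6 each). In males the KO values, 12.99, 13.3 and 14.9 CPM, all lay below the WT values, 18.4, 19.7 and 22.6, and in females the KO values (12.9, 18.2 and 19.4) and WT values (13.4, 19.2 and 23.96) overlapped. The log2 difference over both sexes was -0.36 ± 0.16 (edgeR, adjusted p = 0.646). It was below 0 in 6 of 7 regions, dorsal hippocampus being the exception at 0.15 ± 0.16. Over all regions together, with the mouse as a random block in limma, Sik1 was at -0.21 ± 0.087 (adjusted p = 0.778), and at -0.17 without the 9 libraries. The regions of a mouse share their animal and are not separate evidence. The block used a single correlation of 0.0178 for all genes, so libraries of a mouse counted nearly as independent. Of the variation of Sik1 within regions, 32.4% followed the mouse, against a median of 16.9% over all genes. Its standard error in this fit may therefore be too small.

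In male ventral hippocampus the Sik1 values were 3.84, 4.80 and 4.98 CPM in KO and 5.96, 12.7 and 13.4 in WT, and in females 9.34, 13.6 and 14.6 in KO and 10.7, 12.1 and 13.5 in WT. The male groups did not overlap and the female groups did. The male KO values rest on 4, 4 and 6 counts, and Sik1 did not pass the filter on low counts within males of this region. The sex difference in the KO effect was 1.27 ± 0.56 (female minus male, edgeR interaction, adjusted p = 0.720).

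Among the remaining genes, Gadd45b in dorsal striatum had lowest, median and highest values of 5.18, 7.95 and 9.54 CPM in KO and 3.12, 5.32 and 8.24 CPM in WT. The groups overlapped, with a log2 difference of 0.51 ± 0.22 (edgeR, adjusted p near 1). Ptgs2 in ventral hippocampus had 1.94, 11 and 24.01 CPM in KO and 4.76, 16.8 and 39.7 CPM in WT, also with overlap, and a difference of -1.06 ± 0.48 (adjusted p = 0.982; -1.49 without the 9 libraries, adjusted p = 0.993). Bdnf, Vgf, Dusp1 and Dusp6 had no test with an unadjusted p under 0.05 over both sexes. In prefrontal cortex, summed striatal markers were at 950 to 2655 CPM in KO and 437 to 613 CPM in WT libraries, with no overlap, and the part of this in its KO differences was not tested. Examples of the other differences were 0.49 ± 0.61 for Bdnf in ventral striatum and -0.45 ± 0.23 for Dusp6 in prefrontal cortex. Over all regions together none of the 10 genes passed in limma, against 0.0383% of all genes (6 genes). An unadjusted p under 0.05 was held by 2 of the 10 genes, Sik1 and Gadd45b (0.21 ± 0.10, adjusted p = 0.804), against 6.08% of all genes. Without the 9 libraries that stood apart, 0 of the 10 were under 0.05, against 7.4% of all genes. Acss2 was at -2.90 ± 0.087 in the fit of all 78 libraries.

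The series' title sets males and the ventral striatum apart, so the sexes were compared there. Within a sex, 13 comparisons of KO and WT gave 126 tests of the 10 genes. None passed with edgeR or DESeq2, against 0.0368% of the tests of all genes. At an unadjusted p under 0.05 were 9 (7.14%), against 4.53%. In ventral striatum Acss2 itself, at -3.10 ± 0.29 in males and -2.67 ± 0.34 in females, had adjusted p-values of 0.0888 and 0.801 and did not pass within either sex. In male ventral striatum 9 of the 10 differences were above 0, with a median of 0.73 against 0.02 over all genes, and in females 1 of 10 was above 0, with a median of -0.21 against -0.022. In males 3 of the 10 had an unadjusted p under 0.05, against 9.84% of all genes in that comparison, and in females none did, against 2.13%. Without mice 10 and 13 the male median was 0.49, again with 9 of 10 above 0. Excitatory markers also differed between the male groups: the KO libraries held 491.5 (mouse 1), 1715 (mouse 2) and 1943 CPM (mouse 10) and the WT libraries 475, 376 and 317 CPM, with no overlap. Without mice 2, 10 and 24, which leaves mouse 1 as the only male KO library, assumed to vary like the others, the male median was 0.32 with 7 of 10 above 0. The female median was then 0.17 with 6 of 10 above 0, so its sign changed, and the interaction had a median of 0.049 with 5 of 10 above 0. None passed in these fits. The plot of ventral striatum by sex shows the 12 libraries.

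**Figure D3:**
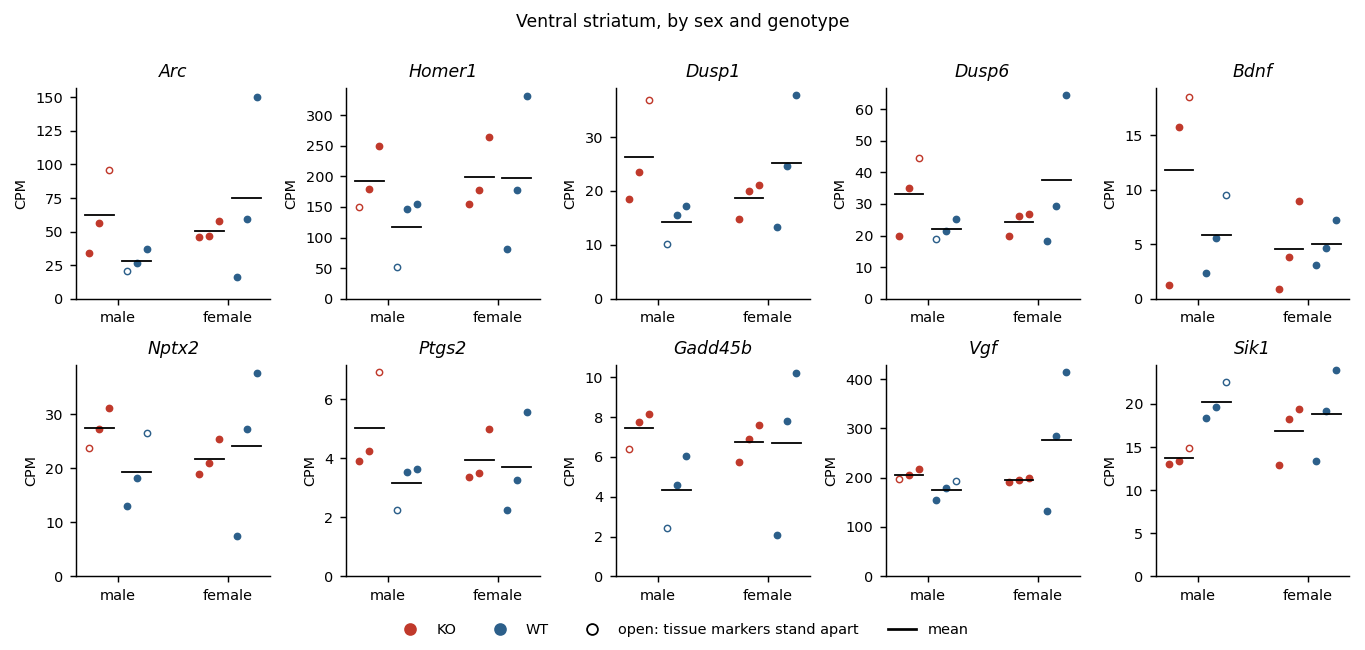
CPM of the 10 genes in ventral striatum of each mouse by sex and genotype, with open points for mice 10 and 13, whose striatal markers were low, and a line at each mean of 3. Among males the KO mean is above the WT mean for every gene but Sik1, and among females 1 WT mouse has the highest Arc, Dusp1 and Dusp6.

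Arc was at 33.8, 56.6 and 95.8 CPM in male KO and 20.5, 26.4 and 37.1 in male WT mice, and at 45.8, 46.9 and 58.1 in female KO and 16.3, 59.2 and 151 in female WT mice. In males the groups overlapped by the lowest KO and highest WT mouse. In females the 3 KO values lay close together, within a WT range set by mice 11 and 24. The male difference was 1.18 ± 0.37 (edgeR, adjusted p = 0.493) and the female -0.67 ± 0.66 (adjusted p = 1.000). The highest male KO value was that of mouse 10 and the lowest male WT value that of mouse 13, both with low striatal markers, and without these 2 libraries the male difference was 0.57 (adjusted p = 0.481). Tested as an interaction, the female minus male difference in the KO effect was -1.83 ± 0.86 (adjusted p = 0.943), and -1.19 without the 2 libraries. Without mice 2, 10 and 24, those with many excitatory markers, the male difference was 0.29 ± 0.34, the female 0.40 ± 0.49 and the interaction 0.11 ± 0.75.

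Dusp1 was at 18.5, 23.5 and 36.8 CPM in male KO and 10.2, 15.5 and 17.2 in male WT mice, with no overlap, and at 14.8, 20.1 and 21.1 in female KO and 13.2, 24.7 and 37.8 in female WT mice, with overlap. The male difference was 0.91 ± 0.29 (edgeR, adjusted p = 0.493; 0.42 without mice 10 and 13). The interaction was -1.40 ± 0.53 (adjusted p = 0.943; -0.87 without them). For Dusp6 the interaction was -1.30 ± 0.59 (adjusted p = 0.943; -0.94 without them). Female WT mouse 24 held the highest Arc, Homer1, Dusp1, Dusp6, Nptx2, Gadd45b and Vgf of the 12 ventral striatum libraries. This library also held 1958 CPM of excitatory markers, the highest of the 12, against a median of 483, and the highest sum of striatal markers. Without mice 2, 10 and 24 the interaction was -0.42 ± 0.52 for Dusp1 and 0.16 ± 0.40 for Dusp6.

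Leaving out mice 10 and 13 moved the male differences of the other genes unevenly. They went from 1.05 to 1.18 for Bdnf, from 0.81 to 0.63 for Gadd45b and from 0.76 to 0.57 for Homer1. They went from 0.71 to 0.24 for Ptgs2, from 0.63 to 0.29 for Dusp6 and from 0.54 to 0.95 for Nptx2. Vgf went from 0.27 to 0.39 and Sik1 from -0.53 to -0.48. No sign changed, and no value passed with edgeR (smallest adjusted p without the 2 libraries 0.221, for Nptx2). In the male comparison the summed striatal markers were 1389 CPM in KO mouse 10 and 759 in WT mouse 13, so each group held 1 such library, the highest in Arc and Dusp1 among the KO and the lowest among the WT males. KO mouse 2, which stayed in, held 1715 CPM of excitatory markers. With mice 2 and 10 left out instead, the male differences of Bdnf (-2.19 ± 0.96) and Dusp6 (-0.13 ± 0.24) changed sign.

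Over the 6 regions in which the interaction of sex and genotype could be tested, none of 60 tests passed (edgeR; 0.0% of all genes). At an unadjusted p under 0.05 were 4 (6.67%), against 4.25% over all genes. Beside Dusp1 and Dusp6 in ventral striatum, these were Vgf (-1.03 ± 0.40, adjusted p = 0.720) and Sik1 in ventral hippocampus. Vgf there was at 129.5, 239 and 247 CPM in male KO and 91.1, 98.5 and 159 in male WT, and at 137, 156 and 172 in female KO and 130.3, 175 and 268 in female WT mice, so that all 4 groups overlapped. Arc in female dorsal hippocampus held 90.7, 101 and 136 CPM in KO and 51.1, 77.05 and 84.5 in WT, with no overlap and a difference of 0.60 ± 0.23 (adjusted p near 1). In the same females, the fit was repeated without the dorsal hippocampus of mouse 23, with low dentate markers. Dusp1 moved from 0.21 ± 0.43 to 0.92 (edgeR, adjusted p = 0.0703) and Ptgs2 from -0.55 ± 0.63 to -1.02 (adjusted p = 0.0822). Over all genes, the calls went from 1 to 167 at the same time. The share of all genes with an unadjusted p under 0.05 went from 1.93% to 19.4%. Among the 10 genes, the number under 0.05 went from 2 to 6.

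Other lists of genes were counted in the same comparisons. Over both sexes, none of those tested passed between KO and WT in any region with edgeR (by region, 10 to 17 of 19 transcription factors, 16 to 23 of 24 further effectors and 21 to 27 of 28 partners). In male ventral striatum 16 of 18 tested transcription factors were above 0, with a median of 0.69, and none passed (5 had an unadjusted p under 0.05). In female ventral striatum 1 of 16 was above 0, with a median of -0.49. In the interaction there 1 of 18 was above 0, with a median of -0.98 against -0.027 over all genes, and none passed. Without mice 2, 10 and 24 the median was 0.35 in males (11 of 18 above 0), 0.072 in females (9 of 16) and -0.41 in the interaction (6 of 18), and none passed. Within a sex, 1 gene of these lists passed, Sgk1, a kinase induced by stress hormones, in female prefrontal cortex (log2 difference 1.77 ± 0.24, adjusted p = 0.00677 with edgeR), named after its value was seen. That comparison has 2 WT libraries, 1 of them the one labelled mouse 23 whose label does not match its sex. KO mouse 5 there is among the 9 libraries that stood apart. Oligodendrocyte marker sums were 8128, 11349 and 6886 CPM in KO mice 4, 5 and 6. They were 1739 and 3300 CPM in the WT libraries of mice 11 and 23, with no overlap. The part of this tissue difference in the Sgk1 value was not tested.

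Most of the 10 genes varied together between mice in ventral striatum. For each of the 45 pairs of genes, Pearson's r and Spearman's rho of log2(CPM + 1) were computed over the mice of each region, with permutation p-values adjusted over the 315 pairs and regions. In ventral striatum (12 mice) the median r was 0.595 and 26 of 45 pairs (57.8%) lay above 0.5, against a median of 0.0266 and 12.5% over all pairs of genes kept there. The median was 0.309 in dorsal striatum (19 pairs above 0.5) and 0.38 in amygdala (16 pairs). It was 0.212 in dorsal hippocampus (8 pairs), 0.13 in ventral hippocampus (10 pairs), 0.0812 in prefrontal cortex (8 pairs, 8 mice) and 0.0176 in cortex (5 pairs). Across these regions the share of all gene pairs above 0.5 was 6.93% to 14.5%. Without the 9 libraries the median was 0.702 in ventral striatum (10 mice, 28 pairs above 0.5) and 0.196 in dorsal striatum (10 mice, 12 pairs). Without the libraries that departed by excitatory markers it was 0.425 in ventral striatum (9 mice, 21 pairs), 0.196 in dorsal striatum (12 pairs) and 0.212 in amygdala (10 mice, 8 pairs). Whether the regions differ in this was not tested. The mice of a region share no library but do share the region's depth.

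**Figure D4:**
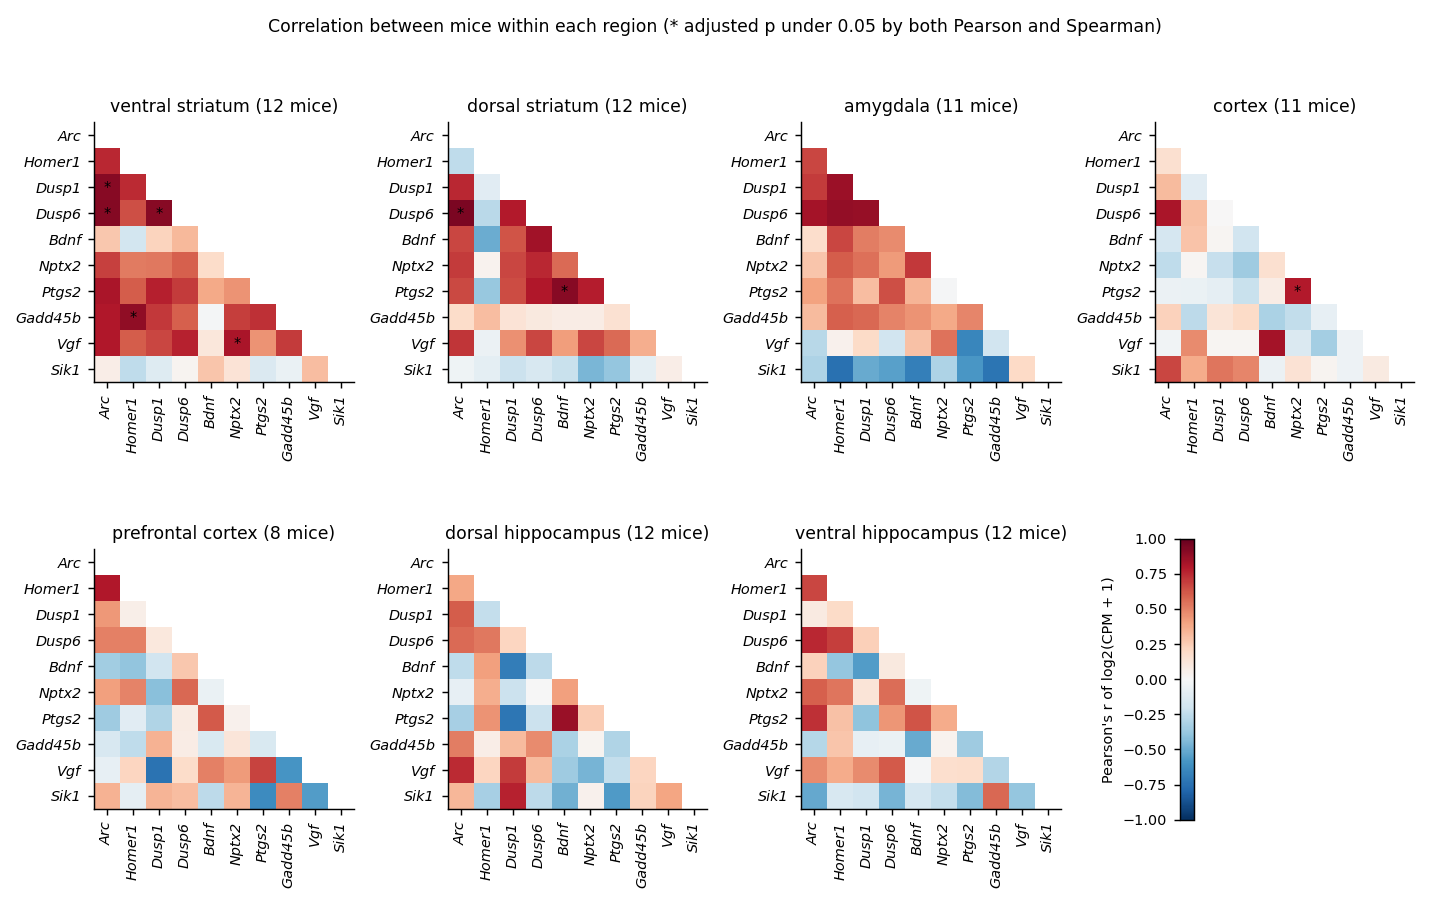
Pearson's r between mice of log2(CPM + 1) for each pair of the 10 genes in each region, from -1 (blue) to 1 (red), with a star where both coefficients passed after adjustment. 5 of the 8 starred pairs are in ventral striatum, and in amygdala Sik1 has r below 0 with 8 of the 9 other genes.

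After adjustment 24 pairs passed by Pearson and 10 by Spearman, and 8 by both: 5 in ventral striatum, 2 in dorsal striatum and 1 in cortex. In ventral striatum all 3 pairs among Arc, Dusp1 and Dusp6 passed by both. Arc and Dusp6 had r = 0.916 (permutation p = 1.00e-05, adjusted 0.00158) and rho = 0.944 (p = 1.00e-05, adjusted 0.00315), where 1e-05 is the smallest p these permutations can give. The r was 0.860 without the 2 mice farthest from the median of the first gene, 0.896 without the libraries that stood apart and 0.950 for deviations from the means of sex and genotype. Arc and Dusp1 had r = 0.911 (permutation p = 5.00e-05, adjusted 0.00394) and rho = 0.909 (p = 9.00e-05, adjusted 0.00567), with r of 0.889, 0.895 and 0.919 under the same 3 changes. Dusp1 and Dusp6 had r = 0.910 (permutation p = 2.00e-05, adjusted 0.00210) and rho = 0.930 (p = 7.00e-05, adjusted 0.00551), with 0.808, 0.929 and 0.912. Mice 24 and 10 were highest and mice 13 and 11 lowest in Arc. The excitatory markers of mice 24 and 10 were at 1958 and 1943 CPM and those of mice 11 and 13 at 227 and 317, against a median of 483. Without mice 2, 10 and 24, r was 0.809 for Arc and Dusp6, 0.784 for Arc and Dusp1 and 0.791 for Dusp1 and Dusp6 (9 mice). The part of these markers in the remaining correlation was not tested.

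The other 2 ventral striatal pairs joined other genes. Nptx2 and Vgf, both encoding secreted proteins, had r = 0.813 (permutation p = 0.00349, adjusted 0.0458) and rho = 0.951 (p = 2.00e-05, adjusted 0.00315), with r of 0.769, 0.843 and 0.960 under the 3 changes. Homer1 and Gadd45b had r = 0.890 (permutation p = 0.000510, adjusted 0.0268) and rho = 0.846 (p = 0.00101, adjusted 0.0353), and r dropped to 0.671 without the 2 farthest mice. Bdnf stayed weakly related to Arc in this region (r = 0.267, adjusted p = 0.661), and Sik1 had r of 0.0687 with Arc (adjusted p = 0.928).

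In dorsal striatum Arc and Dusp6 again passed, with r = 0.941 (permutation p = 1.00e-05, adjusted 0.00158) and rho = 0.923 (p = 6.00e-05, adjusted 0.00551). The r was 0.934 without the 2 farthest mice and 0.852 without mice 10 and 23, the highest in both genes and the libraries with few striatal and many excitatory markers. Bdnf and Ptgs2 had r = 0.908 (permutation p = 0.000170, adjusted 0.0107) and rho = 0.860 (p = 0.000680, adjusted 0.0306), with 0.843 without the same 2 libraries, which were also highest in both of these genes. Excitatory markers moved with these values, and their part in the correlations was not tested. In cortex Nptx2 and Ptgs2 had r = 0.793 (permutation p = 0.00320, adjusted 0.0458) and rho = 0.864 (p = 0.00120, adjusted 0.0378) over 11 mice. Arc and Dusp6 had r of 0.829 in amygdala and 0.816 in cortex (adjusted p = 0.0458 and 0.0390), but did not pass by rho (adjusted p = 0.101 and 0.149), and r fell to 0.631 and 0.573 without the 2 farthest mice.

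**Figure D5:**
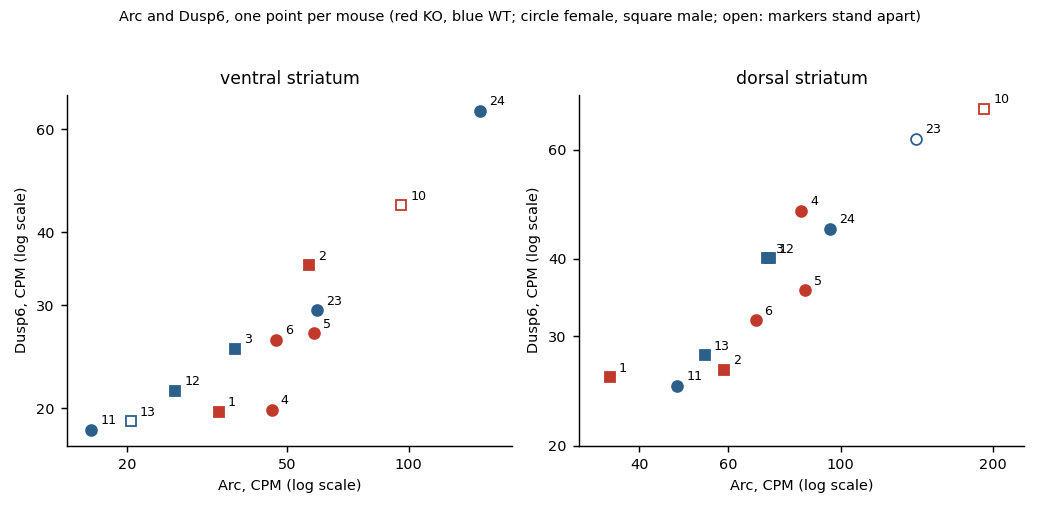
Arc against Dusp6 (CPM, both axes on a log scale) in ventral and dorsal striatum with 1 point per mouse, labelled by mouse number, KO in red, WT in blue, females as circles and males as squares. Mice 24 and 10 lead in ventral striatum and mice 10 and 23 in dorsal striatum, with a KO and a WT mouse in each case. Whether KO and WT mice follow the same line was not tested.

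The maps of region means paired some genes as between mice of the dorsal striatum, Arc with Dusp6 and Bdnf with Ptgs2, and others in another way. Over the 7 region means, as a description, r was 0.95 for Bdnf and Ptgs2, 0.947 for Homer1 and Dusp1, 0.936 for Arc and Dusp6 and 0.894 for Bdnf and Gadd45b. It was lowest for Ptgs2 and Sik1, at -0.785, and for Bdnf and Sik1, at -0.754. These points share mice and depth, and 7 means of 7 tissues are few. Dusp1 and Dusp6, close together between mice of the ventral striatum, had r of 0.371 over region means.

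Region accounted for 71.2% of the variation of Bdnf (sum of squares of log2(CPM + 1) over 78 libraries), 57.3% of Homer1, 51.7% of Ptgs2, 50.4% of Vgf and 47.4% of Arc, against a median of 35.2% over all genes kept. The remaining genes lay between 30.2% (Sik1) and 39.9% (Dusp6). After region, the mouse accounted for 22.6% of the variation of Sik1 and 18.1% of that of Arc, against a median of 10.2%, and for 5.3% (Bdnf) to 13.99% (Gadd45b) in the others. Of the variation within regions alone, the mouse held 34.4% for Arc, 32.4% for Sik1 and 18.4% for Bdnf, against a median of 16.9%. The share of the mouse includes sex and genotype, and 12 mouse means take up a part of the variation even with no mouse effect. Without the 9 libraries the share of the mouse was 14.7% for Arc, 3.05% for Bdnf, 7.42% for Dusp1 (from 12.6%) and 17.5% for Gadd45b. These shares were given no test. For Arc, male KO mouse 1 was below the region mean in 6 of 7 regions, with a mean log2 deviation of -0.64, and male WT mouse 12 in 6 of 7, with -0.45. Male KO mouse 10 was above it in 5 of 6 regions (0.58) and female WT mouse 24 in 5 of 6 (0.59). The libraries of mouse 10 from dorsal striatum, ventral striatum and ventral hippocampus were among the 9 that stood apart. The ventral striatum library of mouse 24 departed by excitatory markers. The part of these tissue differences in the deviations was not tested. High and low Arc mice thus occurred in both genotypes. For Sik1, the male KO mice had mean deviations of -0.42 (mouse 1), -0.25 (mouse 2) and -0.26 (mouse 10), and female WT mouse 24 was above the mean in 6 of 6 regions (0.33). The other mice are not listed for Sik1. Its KO difference within females ran from -0.59 ± 0.44 in cortex to 0.076 ± 0.33 in ventral hippocampus. Within males it ran from -0.61 ± 0.37 in dorsal striatum to 0.22 ± 0.18 in dorsal hippocampus, among the regions tested. Female WT mouse 11 was below the Gadd45b mean in all 6 of its regions (-0.55), and Nptx2 of female KO mouse 4 in all 7 (-0.39). Single-mouse deviations of this kind were not tested.

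For each gene, the 3 genes outside the list most like it were found over all 78 libraries, by Pearson's r of deviations from the region mean, as a description. For Arc they were the immediate early transcription factors Nr4a1 (0.733) and Egr1 (0.697) and the semaphorin Sema7a (0.676), and for Dusp1 they were Nr4a1 (0.611), Ier2 (0.606) and Sowahb (0.583). For Homer1 they were the calcium pump Atp2b1 (0.85), the kinase Plk2 (0.846) and Rasgrp1 (0.814), and for Bdnf the neuritin gene Nrn1 (0.876), Olfm1 (0.846) and Sidt1 (0.84). For Gadd45b they were Sec14l1 (0.564), Junb (0.562) and the clock gene Per2 (0.56). Dusp6 was nearest to Ociad2 (0.72), Ptgs2 to Nell2 (0.735), Vgf to Clstn1 (0.704) and Sik1 to Ganab (0.548). Of the 19 transcription factors, 7 were among the 100 genes most like Arc, 6 for Dusp1, 5 each for Homer1 and Gadd45b, 3 each for Dusp6 and Nptx2 and 2 for Vgf. None were among the 100 most like Bdnf, Ptgs2 or Sik1, out of 15653 genes compared. All of these r values include the libraries whose striatal, dentate or excitatory markers departed from the median of their region. The part of those libraries in the r values and in the order of the genes was not tested.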

How the data were processed

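Poly(A) RNA of 7 brain regions from 12 mice was sequenced in 78 libraries. The deposited tables give raw read counts per gene symbol, which the authors made with STAR 2.5.2a, SAMtools 1.1 and HTSeq 0.6.1 on GRCm38/mm10, per the submitters' processing notes, which also name DESeq2 and R 4.0.2. The annotation, strand setting and filters are not given in the sources used here. How reads from overlapping genes were counted is therefore not known. Homer1 and Dusp1 also overlap genes on their own strand, which no strand setting would separate.

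From these counts CPM was computed by column total. Regions, KO against WT within a region and the interaction of sex and genotype were tested with edgeR 4.0.16 (quasi-likelihood, TMM, filterByExpr with a minimum count of 10 and total of 15, R 4.3.3). KO against WT over all regions was tested with limma 3.58.1 (voom, mouse as a random block). DESeq2 1.42.0 was an alternative. Adjusted p-values are Benjamini-Hochberg over all genes, with a threshold of 0.05, and values after ± are standard errors of log2 differences or SDs of CPM. Scripts were tested on simulated data. In simulated counts for the fit over all regions, 193 of 200 changed genes were called together with 28 unchanged ones. That is a larger share of false calls than the threshold aims at. Correlations used log2(CPM + 1), 100000 permutations (exact in prefrontal cortex) and adjustment over 315 tests. A replicate number was taken as the mouse, so libraries of the same number were treated as the same animal. The prefrontal cortex library labelled mouse 23 does not match the sex of the other libraries of that number. The median correlation of deviations was 0.0124 over 210 pairs of the same number, against -0.00102 for other mice of the same sex and genotype. These values do not show whether a number marks the same animal. All 10 genes were tested in each comparison where they passed the filter and enter its counts, and the text gives examples; Acss2 is the check of genotype. Other genes are named from the 3 most like each; the gene nearest to Nptx2 is not reported here. Members and lists were chosen with earlier results of these data known. The 9 libraries that stood apart (striatal marker sum over 3-fold from the median of the region in either direction, or dentate sum that far below it in hippocampus) and the 6 that departed as far in excitatory markers were picked after seeing the data.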

Additional observations from a re-analysis of the deposited data

Results flagged for a closer look

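Values were screened in each region for a library at the top or bottom of its genotype that stood far from the rest of the 4 to 6 libraries, by the ratio of its gap to the nearest library to the range of the group. Of 140 groups of a gene, a region and a genotype, 14 were flagged, and chance flags about 1 in 20 groups. 5 of the 14 were among the 9 libraries whose striatal or dentate markers stood apart, and 4 were in prefrontal cortex, where groups had 4 libraries. The reasons were not tested.

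Arc was flagged 3 times, each for a high library: female WT mouse 24 in ventral striatum (150.6 CPM, the others of its genotype at most 59.2), male KO mouse 10 in dorsal striatum (192.1, the others at most 85.1) and female WT mouse 23 in amygdala (191 CPM, the others at most 45.6). The same ventral striatum library of mouse 24 was flagged for Dusp6 (64.53 CPM, the others at most 29.4); it held the most excitatory markers of that region (1958 against a median of 483 CPM). Homer1 was high in KO mouse 2 in cortex (255.7 CPM, the others at most 206.5) and in KO mouse 6 in ventral hippocampus (281.4, the others at most 122), the library with high striatal markers.

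Dusp1 was low in WT mouse 13 in cortex (18.35 CPM) and in KO mouse 1 in prefrontal cortex (10.54), and high in WT mouse 11 in ventral hippocampus (29.9). Dusp6 was low in WT mouse 12 in prefrontal cortex (27.52 CPM), and Gadd45b in KO mouse 5 there (7.103). Bdnf was high in WT mouse 23 in dorsal striatum (24.13 CPM, the others at most 9.51). Sik1 was high in WT mouse 3 in prefrontal cortex (34.92 CPM) and in WT mouse 23 in dorsal hippocampus (15.97).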

How the results depend on the processing

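No call on any of the 10 genes changed direction under any alternative that was run (DESeq2's Wald test or size factors, no filter on low counts, the replicate block, the 4 deep regions, each mouse left out, the library of mouse 23 from prefrontal cortex left out, and, chosen after seeing the data, the 9 libraries or the 6 with departing excitatory markers left out). For KO against WT, no filter on low counts gave 1 call over both sexes (Ptgs2 in ventral hippocampus at -1.05, adjusted p = 0.032), 2 within a sex (Vgf in male and Ptgs2 in female ventral hippocampus) and 2 in the interaction (Arc and Vgf in ventral hippocampus), against 0 with the filter. All lie in a shallow region.

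Counts over all genes moved more. Within a sex, 60 calls became 140 with DESeq2's Wald test, 861 without the filter, 183 without the 9 libraries, 327 without the prefrontal library of mouse 23 and 9 to 493 with a mouse left out (lowest without mouse 5, highest without mouse 23). The interaction, with 0 calls, gave 134 without the filter, 18 without the 9 libraries and 0 to 16 with a mouse left out. Over all regions, 6 calls became 1 in the 4 deep regions, 10 without the 6 libraries and 3 to 16 with a mouse left out. In prefrontal cortex, 10 calls became 36 (Wald), 367 (no filter), 55 (without mouse 23) and 7 to 79 (a mouse left out). Elsewhere the single call became 2 in amygdala (Wald), 10 in cortex, 2 in dorsal and 101 in ventral hippocampus (no filter), and 1 to 2 in dorsal hippocampus with a mouse left out.

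With the replicate block, 35 of 70 regional tests and 105 of 210 pairs of regions passed, against 33 and 100. A mouse left out gave 30 to 33 and 88 to 101. Pairs of genes with r above 0.5 went from 19 to 12 in dorsal striatum without the 9 or the 6 libraries, and from 16 to 8 in amygdala without the 6. Without the 6, 37 of 70 regional tests passed, 32 of them among the 33. Without the 2 farthest mice they went from 16 to 5 in amygdala, 5 to 3 in cortex and 8 to 5 in dorsal hippocampus, and by deviations from group means from 8 to 17 in prefrontal cortex. With a mouse left out they were 8 to 20 in amygdala and 5 to 11 in dorsal hippocampus. The causes were not tested. The 31 shallow libraries limit low genes such as Gadd45b, Ptgs2 and Sik1.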
